A study of Drosophila melanogaster with 2 samples.

Results

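Clusters of closely spaced peaks were taken from the list of reproducible ChIP-seq peaks of CG9948-GFP in Drosophila melanogaster pupae. That list was selected by the irreproducible discovery rate (IDR), a measure of how well peaks keep their rank between replicates, and its 7637 peaks are called IDR peaks here. Of every group of overlapping IDR peaks the one with the highest signal was kept, which left 7453 kept peaks. A kept peak was a member when at least 2 other kept summits lay within 5 kb of its own summit (the position of highest signal in a peak). By this rule 3168 of the 7453 kept peaks, 42.5%, were members, and the other 4285 were not. Members whose summits lay within 5 kb of each other were chained, which gave 813 clusters. The positions and signals in the IDR list chose the members, so these values are given as a description, without a test.

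ChIP-seq was done on whole pupae aged 24 h of a transgenic strain that stably expresses CG9948 with GFP fused to its C terminus. An antibody against GFP was used, so that the transgenic, tagged protein was profiled, and the labels do not say which promoter drives the transgene. Chromatin was broken by sonication, with a stated size range of 200 to 800 bp, and all cell types of the pupa were pooled. The 2 samples are biological replicates per the labels, numbered 1 and 3, and form a single group, so there is no comparison between conditions.

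In ChIP-seq, DNA bound by a tagged protein is enriched with an antibody and sequenced, and places with more reads than a control are listed as peaks. In flies, the genes of developmental regulators often have long introns and wide intergenic regions that hold many separate enhancers, which are stretches of DNA that raise transcription from a distance. Promoters lie at the 5′ ends of genes, where transcription starts. A run of peaks along a locus can therefore touch promoters, introns and intergenic DNA of the same gene or of neighbouring genes.

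The DNA at the summits is shown for members at which the results turn: the strongest members of the cluster with the most members and of the cluster with the highest summed signal in the IDR list, examples with lower and higher A + T content, and all members of the most compact cluster. Each sequence is the plus strand, 5′ to 3′, of the RefSeq release 6 genome (dm6) and spans the summit and 50 bp to either side. Capitals mark runs of 6 or more A or T bases. The first, at chr3L:18232410-18232510, is the strongest of 25 members in the intergenic region between CG7320 and CheA75a. The second, at chr3R:30272649-30272749, is the strongest of 20 members in and upstream of heca. At chrX:3682292-3682392 in an intron of Mnt, the window is rich in A + T and yet holds no such run. The window in an intron of Raf, at chrX:2300655-2300755, has the lowest A + T content of those shown, and that in the promoter of hng3, at chr3L:738821-738921, the highest.
CheA75a strongest: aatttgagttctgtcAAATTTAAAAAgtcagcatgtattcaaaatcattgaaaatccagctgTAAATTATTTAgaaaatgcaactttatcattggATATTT
heca strongest: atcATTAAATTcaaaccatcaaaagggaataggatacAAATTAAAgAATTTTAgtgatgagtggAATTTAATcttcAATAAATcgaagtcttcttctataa
Mnt strongest: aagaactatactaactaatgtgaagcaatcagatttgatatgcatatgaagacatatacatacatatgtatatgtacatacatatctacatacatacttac
Raf strongest: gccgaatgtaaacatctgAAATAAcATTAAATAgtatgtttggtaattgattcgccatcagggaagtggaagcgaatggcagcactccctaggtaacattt
hng3 promoter: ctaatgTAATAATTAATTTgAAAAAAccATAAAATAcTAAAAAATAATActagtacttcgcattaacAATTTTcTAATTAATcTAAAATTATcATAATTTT

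The A + T content of these windows was 75.2% at the CheA75a member, 74.3% at heca, 73.3% at Mnt, 60.4% at Raf and 84.2% at hng3. Flanks of the same total length, centred 200 bp to either side, held 55.9%, 52.9%, 51.0%, 45.1% and 37.3% in the same order. All 5 windows thus held more A + T than the DNA beside them, and the difference was smallest at Raf. Runs of 6 or more A or T bases numbered 3, 5, 0, 2 and 8.

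The 4 members at pnt, which codes for an ETS transcription factor downstream of EGF receptor signalling, lay within 1.895 kb, the smallest span of any cluster of 4 or more members. Their windows are chr3R:23333772-23333872, chr3R:23334370-23334470, chr3R:23335004-23335104 and chr3R:23335667-23335767. They are shown because they are neighbours within a single locus and can be compared by eye.
pnt member 1: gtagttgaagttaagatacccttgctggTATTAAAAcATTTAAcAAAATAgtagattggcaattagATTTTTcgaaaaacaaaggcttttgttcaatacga
pnt member 2: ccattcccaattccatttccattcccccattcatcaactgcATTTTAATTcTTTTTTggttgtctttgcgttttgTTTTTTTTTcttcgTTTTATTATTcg
pnt member 3: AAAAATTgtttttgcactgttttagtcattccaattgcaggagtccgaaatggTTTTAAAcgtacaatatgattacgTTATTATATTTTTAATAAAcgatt
pnt member 4: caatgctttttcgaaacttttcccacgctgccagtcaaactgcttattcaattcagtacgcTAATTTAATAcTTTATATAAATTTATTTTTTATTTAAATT

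A + T content was 70.3%, 67.3%, 73.3% and 73.3% in these 4 windows, and each held 2 to 4 runs of 6 or more A or T bases. The runs sat at different places in the window.

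The strongest of all members lay at chrX:12751246-12751526, a stretch of 281 bp that is shown at this length because the peak is wide. It is a promoter member of the CG4004 cluster, inside the long noncoding RNA gene lncRNA:Vinr and 481 bp from the 5′ end of lncRNA:CR44619.
CG4004 strongest: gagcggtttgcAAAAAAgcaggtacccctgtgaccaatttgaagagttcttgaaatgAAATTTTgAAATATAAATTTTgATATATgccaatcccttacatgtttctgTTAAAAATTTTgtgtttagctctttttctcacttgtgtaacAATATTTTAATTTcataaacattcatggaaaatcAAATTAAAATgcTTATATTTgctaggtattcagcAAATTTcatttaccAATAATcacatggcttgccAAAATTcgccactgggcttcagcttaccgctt

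This stretch held 11 runs of 6 or more A or T bases, 92 bases in all, spread along its length.

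Read depth is unknown, since the deposited lists hold positions and signals and no read counts. Each replicate list holds 30000 peaks. Signal is the authors' own value per peak on an unstated scale, and peaks are compared by it only within a list. Ratios between the replicate lists are given as a description. Intervals are 95% Wilson intervals and reflect counting error alone, over peaks or over genes. Peaks of a cluster share a locus and are not independent, so the intervals are too narrow by an unknown amount.

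Most clusters were short. Of the 813, 123 held a single member and 29 held 2, because the neighbours that made a peak a member need not be members themselves. The 661 clusters of 3 or more held 2987 members, 94.3% of all. Among them 277 clusters had 3 members, 152 had 4, 92 had 5 and 55 had 6. Long clusters were few: 8 clusters had 12 members, 1 had 14, 2 had 15, 1 had 20 and 1 had 25. The 661 clusters spanned a median of 4834 bp, from 786 to 38926 bp, and together 4013 kb, 3.00% of the chromosomes used.

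The 2355 gaps between adjacent summits had a median of 1420 bp, with quartiles of 843.5 and 2400 bp. More gaps (419) fell between 500 and 750 bp than in any other bin of 250 bp. In 27 pairs the summits were under 500 bp apart, 21 of them under 250 bp. The narrower peak of these pairs had a median width of 148 bp, against 315.5 bp for all members. Peaks wider than the gap would overlap and could not both be kept, so the rule itself limits how close members could be.

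**Figure D1:**
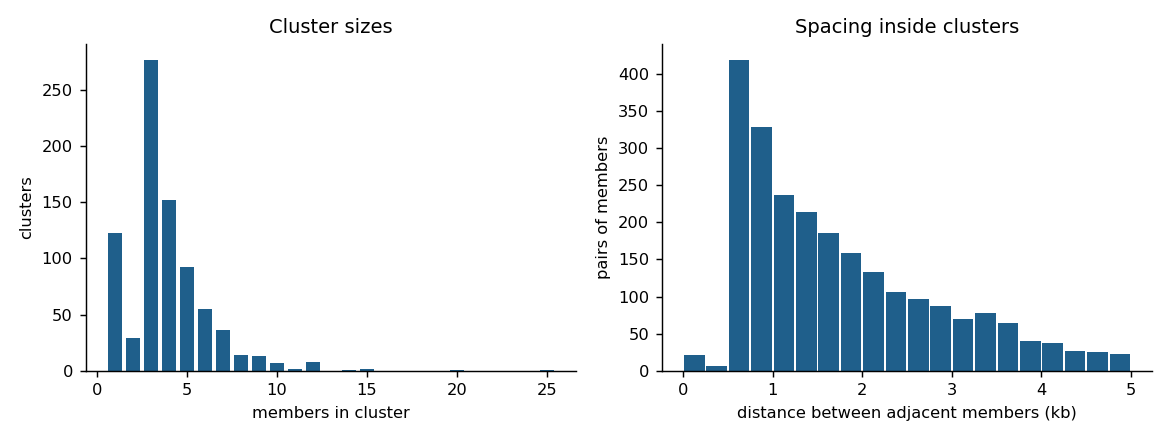
Left, number of clusters by number of members. Right, number of pairs of adjacent members by the distance between their summits in kb, in bins of 250 bp. Clusters of 3 are the most frequent with 277, and the bin from 500 to 750 bp holds the most pairs, 419.

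The limit of 5 kb fell in a continuous range of distances. For the 10 members nearest to it the second nearest summit lay 4991 to 4997 bp away, with signals of 151 to 1150 and a median of 234. For the 10 kept peaks just outside, that distance was 5003 to 5029 bp, with signals of 150 to 1332 and a median of 300.0. In both groups of 10, 3 were promoter peaks.

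Members were found on all large chromosome arms and not on chromosome 4. They made up 47.6% of the kept peaks on 3L, 44.0% on 2L, 41.2% on 2R, 40.3% on X and 39.0% on 3R. On 3L, 840 of 1764 kept peaks were members. On chromosome 4 none of 13 kept peaks was a member, with an interval up to 22.8%. Kept peaks per Mb numbered 62.8 on 3L, 61.0 on X, 58.3 on 2L, 50.9 on 3R and 48.9 on 2R, so that the order of the arms by density was not their order by share of members.

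Over all chromosomes, members lay in introns and between genes more often than the other kept peaks, and at promoters less often. Promoter peaks, with a summit within 500 bp of a transcription start site (TSS) of any gene, were 29.7% of all kept peaks. Among members 594 were promoter peaks, 18.75% (interval 17.4 to 20.1%), against 1620 of the 4285 others, 37.8% (36.4 to 39.3%). Introns held 1697 members, 53.6% (51.8 to 55.3%), against 42.0% (40.6 to 43.5%) of the others. Intergenic DNA held 810 members, 25.6% (24.1 to 27.1%), against 18.0% (16.9 to 19.2%). Of all kept peaks 46.9% lay in introns and 21.2% in intergenic DNA. The intervals of members and of the others did not overlap in any of the 3 classes. The arms differed in the intergenic share. It was 39.4% of members against 23.9% of the others on 3L, 27.0% against 15.8% on 3R and 27.9% against 20.3% on 2L. On 2R it was 17.5% against 17.9%, and on X it was lower in members, 8.64% against 12.5%, so 3L alone gave 331 of the 810 intergenic members. On each of these 5 arms the promoter share was lower in members and the intron share higher. The remaining members were 49 in exons of noncoding genes, 10 in 3′ UTRs, 7 in 5′ UTRs and 1 in a coding exon.

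The promoter share was lower in larger clusters. It was 41.3% among kept peaks with no other summit within 5 kb and 34.1% among those with 1. Among members it was 33.7% in clusters of 1 or 2, 22.6% in clusters of 3, 18.4% in clusters of 4 or 5, 13.8% in clusters of 6 to 9 and 13.0% in clusters of 10 or more. In the largest clusters 46.9% of members were intergenic (41.1 to 52.8%), and 37.9% were intronic. These 130 intergenic members came from few clusters. The cluster between CG7320 and CheA75a gave 24, and those at heca and beyond hng3 gave 15 each. Room between genes can bear on both the rule and the class of DNA, and its part in the promoter, intron and intergenic shares was not tested. The median distance of a member to the nearest TSS was 2572.5 bp, against 1131 bp for the others.

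**Figure D2:**
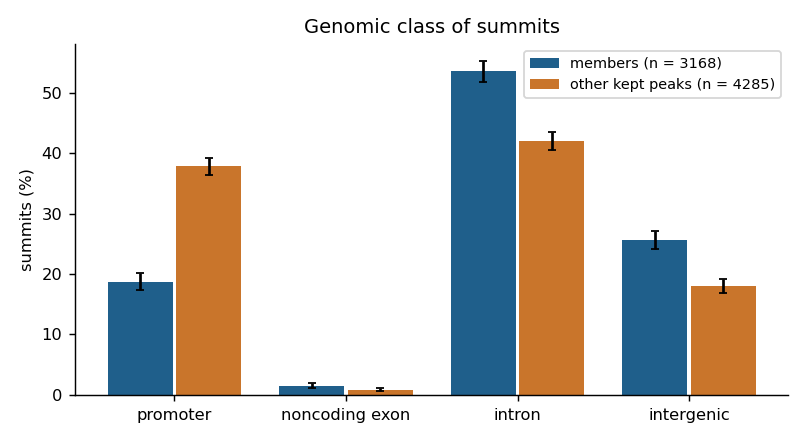
Percent of summits in promoters, exons of noncoding genes, introns and intergenic DNA for the 3168 members and the 4285 other kept peaks, with 95% Wilson intervals as error bars. Members stand lower at promoters, 18.75% against 37.8%, and higher in introns and intergenic DNA.

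Starts of noncoding genes alone lay near more of the promoter members than of the other promoter peaks. Of the 594 promoter members, 126 (21.2%, interval 18.1 to 24.7%) lay within 500 bp of the 5′ end of noncoding genes only, against 88 of 1620 (5.43%, 4.43 to 6.64%) among the other promoter peaks. In 145 of the 661 clusters of 3 or more (21.9%) at least 1 member lay in a noncoding gene or near its 5′ end. The other kept peaks form no clusters, so this share has no counterpart among them. Larger clusters also have more summits that can touch a noncoding gene. The tara cluster, beside a trithorax group gene, touched 6 such genes, among them lncRNA:CR45637 and lncRNA:CR45643. In the psq and lola cluster a member lay inside lncRNA:acal.

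Inside genes, members lay toward the 5′ end. For 1654 intronic members inside a protein-coding gene (the longest where genes overlapped), the median position was 35.3% of the gene's length from its 5′ end, and 68.7% (66.5 to 70.9%) lay nearer to the 5′ end than to the 3′ end. The other intronic peaks had a median of 37.9%, and 63.5% (61.2 to 65.7%) lay nearer to the 5′ end. Both groups sat in long genes, with median host lengths of 39.3 kb and 35.7 kb. Of the intergenic members 67.0% (63.7 to 70.2%) lay upstream of the nearest protein-coding TSS, at a median distance of 6.645 kb. Of the other intergenic peaks 60.5% (57.1 to 63.9%) did, at 5.304 kb.

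The signal in the IDR list, which also chose between overlapping peaks, was a little higher in members. Its median was 340 (quartiles 218 and 601), against 296 (203 and 503) in the others. With the kept peaks ranked by signal and cut into 5 equal groups, members made up, from the weakest group to the strongest, 37.6%, 37.4%, 43.1%, 45.0% and 49.5%. The median was 315 in clusters of 3, 340 in clusters of 4 or 5, 355 in clusters of 6 to 9 and 391 in clusters of 10 or more.

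Within a cluster, signals differed several fold. The strongest member had a median of 3.54 times the signal of the weakest, from 1.07 to 31.3 times. Its place within the cluster was not fixed: it was the first or last summit in 320 of 661 clusters (48.4%), where cluster size alone gives 336. It was a promoter peak in 135 clusters (20.4%), and 325 clusters (49.2%) had a promoter member. In the 176 clusters with exactly 1 promoter member, this was the strongest in 51 (29.0%, interval 22.8 to 36.1%), against a mean of 25.3% from cluster size alone. The signal of that promoter member was a median of 0.969 times the median of its neighbours. The interval of the 29.0% thus covered the 25.3% that cluster size alone gives for any member.

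About as many clusters lay within a single gene as did not. All members lay inside a single protein-coding gene in 332 of 661 clusters (50.2%), and none lay in a protein-coding gene in 170 (25.7%). A protein-coding TSS lay between the first and last summit in 277 (41.9%).

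The cluster with the most members lay in a stretch of 3L with no protein-coding gene. Its 25 summits ran from 18210152 to 18249078, 38.926 kb, starting 6.515 kb from CG7320 and ending 3.01 kb from CheA75a, a gene of a family of chemosensory proteins. Of these members 24 were intergenic and 1 was near the 5′ end of lncRNA:CR45936. Their signals in the IDR list ran from 152 to 1906 with a median of 338. The strongest, whose sequence is first above, had 721 in replicate 1 and 1189 in replicate 3. The next 3 in strength lay close together at 18235968, 18236581 and 18238750. They had 724, 516 and 475 in replicate 1 and 910.0, 1037 and 817 in replicate 3. In each replicate 24 of the 25 members were listed, and 23 were listed in both.

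The cluster at heca (headcase), a gene needed in imaginal cells, had the highest summed signal in the IDR list, 15057, and in replicate 3, but in replicate 1 its sum of 5049 was just below the 5061 of the CG4004 cluster. Its 20 members spanned 30.934 kb of 3R, 15 of them intergenic and 5 in introns of heca, and all were listed in both replicates. The 3 strongest in the IDR list had 800.0, 580 and 401 in replicate 1 and 1351, 1297 and 1098 in replicate 3, and all were intergenic. The 5 intronic members were weaker, between 173 and 641 in the IDR list.

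At CG4004 on X just 7 members within 7.605 kb gave the third highest summed signal in the IDR list, 13362, and in replicate 3, and the highest in replicate 1. The strongest, whose sequence is above, had 2421 in replicate 1 and 3465 in replicate 3. The next 2 had 1113 and 649 in replicate 1 and 2152 and 1136 in replicate 3, and lay in exons of lncRNA:CR44619. The weakest had 37.9 and 267. In both replicates the same 3 members stood highest, in the same order.

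In the pnt cluster the order differed between the replicates. Its 4 members had 150, 114, 183 and 153 in replicate 1, and 177, 929, 253 and 299 in replicate 3. The second was the weakest in replicate 1 and the strongest in replicate 3, and in the IDR list, where it stood at 1028. Its rank therefore rests on replicate 3.

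**Figure D3:**
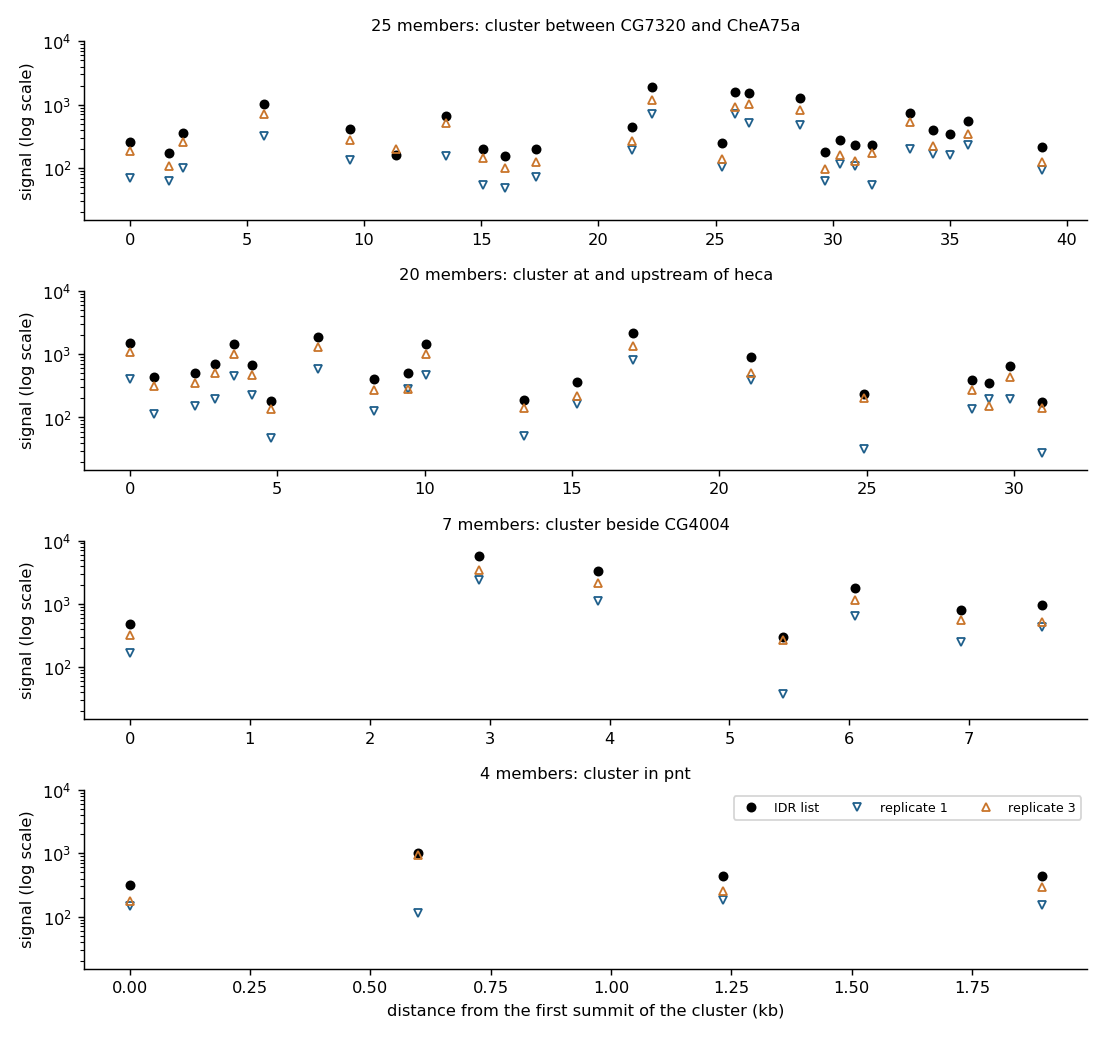
Signal of each member (log axis) by distance in kb from the first summit in the clusters between CG7320 and CheA75a, at heca, beside CG4004 and in pnt, with values from the IDR list, replicate 1 and replicate 3. The second pnt member is the lowest of 4 in replicate 1 (114) and the highest in replicate 3 (929).

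Other clusters with 12 or more members lay at the following genes. Mnt, the partner of Max that opposes Myc, held all 12 members of its cluster, 11 of them in introns. Raf, the kinase of the Ras pathway, held 10 of 12. At ptc, the Hedgehog receptor, 6 of 12 members lay in the gene. At ttk, a BTB zinc finger repressor, 6 of 12 did, and there the signals were low, with a median of 194. Between Ids and sty (sprouty, an inhibitor of receptor tyrosine kinase signalling) all 12 members were intergenic. The psq and lola cluster, at 2 neighbouring genes of BTB-domain transcription factors, had 15 members over 28.677 kb.

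A pair of clusters lay at hng3 on 3L. One, with 12 members over 22.58 kb, 6 of them in hng3, ended 2.169 kb from emc, which codes for a helix-loop-helix protein that blocks proneural factors. The other began 4.871 kb beyond the gene and had 15 intergenic members over 27.479 kb. At Samuel on 2L a cluster had 14 members, 8 of them in the gene, and at CG33795 on 3L 10 of 12 members were intergenic.

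Several of the clusters with the highest summed signal had no intergenic member. In Tet, of the family of dioxygenases that act on methylated bases, there were 10 members with 8696 in sum. In osa, a subunit of the Brahma chromatin remodelling complex, 7 members summed to 8386, the strongest with 1123 in replicate 1 and 2267 in replicate 3. At vri, the bZIP repressor of the circadian clock, 8 members, 6 of them in the gene, summed to 7548, and in CHES-1-like, a forkhead transcription factor gene, 9 summed to 7533. In sbb, which codes for a transcriptional corepressor, all 10 members were intronic and summed to 7577, and in mtgo 9 members summed to 7384. At CG43389 on 3L 10 members summed to 8175, and 5 of them were promoter peaks and 3 intergenic. At ush, which codes for a cofactor of GATA factors, and cbt the sum of 8432 rested mostly on the strongest member, 4697, while the median of the 7 was 258.

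The remaining compact clusters each had 4 members. In Nost they lay within 2 kb, in mgl, which codes for an endocytic receptor of the LDL receptor family, within 2.139 kb, near pxb within 2.333 kb and near CG15625 within 2.388 kb. The strongest at pxb had 661 in replicate 1 and 1245 in replicate 3, and the strongest at mgl had 147 and 236.

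Genes with members were long. Of 13945 protein-coding genes, 920 (6.60%) had a member in the gene or within 1 kb of it, and these had a median length of 10.4 kb. The 3107 genes with a kept summit and no member had a median of 3.503 kb, and the 9918 with none 1.80 kb. The share with a member was 2.73% of genes under 2 kb, 7.43% from 5 to 10 kb, 25.4% from 20 to 50 kb and 42.0% above 50 kb. A longer gene offers more positions at which a summit is counted, so the counting rule itself favours long genes. The gene with the most members was Tet with 25, followed by Snoo with 20 and CG1677, CG43658, fz and sbb with 18 each. All 6 are at least 79.1 kb long.

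Signalling genes had members in more cases than any other list. Of 29 listed genes 19 had a member (65.5%, interval 47.3 to 80.1%) and 25 had a kept summit, with a median gene length of 22.2 kb. Of all protein-coding genes 6.60% had a member and 28.9% had a kept summit. The share with a member was 25.4% among genes of 20 to 50 kb and 42.0% above 50 kb. The Frizzled receptor gene fz had 18 members, the strongest with 306 in replicate 1 and 642 in replicate 3. Its relative fz2 had 9, the strongest with 488 and 853. The ETS repressor gene aop had 11 members, up to 432 and 748, and ds, which codes for a protocadherin of planar cell polarity, had 11, up to 633 and 1225. The remaining 15 genes with members, among them ptc, tkv, dpp, spi, pnt, InR and Egfr, had 1 to 6 each. Among the listed genes with no member were N, wg, hh, ci and yki.

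Of 21 ecdysone response genes, 9 had a member and 18 had a kept summit, with a median length of 31.1 kb. Over all protein-coding genes these shares were 6.60% and 28.9%, and of genes of 20 to 50 kb 25.4% had a member. Above 50 kb, where Hr4 and br of this list lie, 42.0% did. Ecdysone is the steroid hormone that drives moulting and metamorphosis. The nuclear receptor gene Hr4 had 9 members, the strongest with 622 in replicate 1 and 1407 in replicate 3. The ETS factor gene Eip74EF had 7, up to 1061 and 1708. The receptor gene EcR and the ABC transporter gene E23 had 5 each, up to 289.9 and 650.4 in EcR and up to 705 and 1493 in E23. Eip63E also had 5, up to 164 and 310.3. In 4 of these 5 genes the strongest member was intronic, and in E23 it was a promoter peak. Among the listed genes with no member were br and usp with 1 kept summit each, Hr3 with 3, Eip93F with 4 and ftz-f1 with 5.

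Of 30 genes of cell adhesion and axon guidance 13 had a member (43.3%, interval 27.4 to 60.8%) and 21 a kept summit. Their median length, 40.3 kb, was the longest of the lists. Of all protein-coding genes 6.60% had a member and 28.9% a kept summit. Among genes of 20 to 50 kb 25.4% had a member. Above 50 kb, where Ten-a, CadN and Lar of this list lie, 42.0% did. Fas3, a homophilic adhesion protein gene, had 8, and Sema1a, Ten-a and fra, the netrin receptor gene, had 6 each. The strongest of these was in Sema1a, with 414 in replicate 1 and 901 in replicate 3. Of 23 cytoskeletal genes (median length 12 kb) 7 had a member (30.4%, interval 15.6 to 50.9%) and 17 a kept summit. Among genes of 10 to 20 kb 16.7% had a member. The fascin gene sn had 8, the moesin gene Moe 7, the actin regulator gene ena 7 and the spectrin gene kst 5. All the strongest members of these 8 genes lay in introns.

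Chromatin and insulator protein genes are shorter, with a median length of 7.98 kb, and 5 of 21 had a member (23.8%, interval 10.6 to 45.1%). This stands against 6.60% of all protein-coding genes and 7.43% of genes of 5 to 10 kb. Besides osa with 7, trx had 5, Trl, which codes for the GAGA factor, had 4, and the Polycomb group gene ph-p had 4. Among the genes of this list with no member were CTCF, Cp190, BEAF-32, su(Hw) and mod(mdg4), which code for insulator proteins, each with 1 kept summit. The Polycomb group genes Pc and ph-d and the trithorax group genes ash1 and brm had no member either. In all, 18 of the 21 genes had a kept summit, against 28.9% of all protein-coding genes. In Trl the strongest member reached 1256 in replicate 1 and 2030 in replicate 3, and in ph-p 1223 and 1645.

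At patterning and ribosomal protein genes the share with a member was close to the 6.60% of all genes, with wide intervals. Of genes from 10 to 20 kb 16.7% had a member, and of genes under 2 kb 2.73%. Of 34 patterning transcription factor genes (median length 11.7 kb) 3 had a member, 8.82%: hth had 9, inv 4 and mirr 1. Of 8 Hox genes (median length 30.6 kb) 1 had members, 12.5% (interval 2.24 to 47.1%). This was Antp with 3, the strongest with 152 in replicate 1 and 343 in replicate 3. Of 92 cytosolic ribosomal protein genes, with a median length of 1.315 kb, 8 had a member, 8.70% (4.47 to 16.2%). A kept summit was present in 47 of them (51.1%), against 28.9% of all protein-coding genes. RpS25 and RpS21 had 2 each, and RpLP0 and RpL13A 1, the RpS25 member reaching 103 and 244.

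Members were listed in both replicates more often than the other kept peaks. A peak counted as listed where a peak of that replicate covered 50% or more of the shorter of the pair, and 91.1% of all kept peaks were listed in both. Among members 3066 did, 96.8% (96.1 to 97.3%), against 3723 of the others, 86.9% (85.8 to 87.9%). Of the members, 17 were found in replicate 1 only and 85 in replicate 3 only. Among kept peaks with no other summit within 5 kb the share was 82.8%, and among those with 1 it was 91.3%. Signal moved with this share, as the medians of 282 and 307 in these groups and 340 in members show, and its part in the difference was not tested. The IDR list was derived from the replicate lists, so that these shares are a description.

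Values were higher in the list of replicate 3. The scale of both lists is unstated, so the ratios between them are a description. The median over the members in both lists was 113 in replicate 1 and 235 in replicate 3, and the ratio per member had a median of 2.08, with 5% of members under 1.20 and 5% over 4.65. For 128 members the ratio was above 5, and for 61 it was below 1. At an Atat promoter a member had 19.4 in replicate 1 and 820 in replicate 3, and near Gr93b a member had 23.01 and 692. In the opposite direction, a member at the CG11170 promoter had 194 and 33.7, the lowest ratio, and members in crp and cic had 122 and 162 in replicate 1 and 29.0 and 40.5 in replicate 3. These members were chosen for their ratios.

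The rule was also applied to the 7637 strongest peaks of each replicate alone. Replicate 1 gave 3144 members in 791 clusters, and replicate 3 gave 3158 in 798. A member had a counterpart where a member of the replicate's own list lay within 250 bp. Of the 661 clusters of 3 or more, 530 (80.2%) had counterparts for at least 3 members in replicate 1 and 582 (88.0%) in replicate 3, while 86 and 64 had none. Every member had a counterpart in 383 clusters (57.9%) and 493 clusters (74.6%). Of the 140 clusters of 6 or more, 61 and 95 had a counterpart for every member. At the level of peaks, 79.8% of members had a counterpart in replicate 1 and 88.0% in replicate 3.

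Every member was in both lists in 573 clusters of 3 or more. Across these clusters, Spearman's rho between the summed signals in replicates 1 and 3 was 0.960, and Pearson's r of their log2 values was 0.957. Both sums of a cluster share its number of members, and the IDR list selects peaks that match between replicates, so these values are a description. The strongest member was the same in both replicates in 458 of 573 clusters (79.9%), where cluster size alone gives a mean of 25.7%.

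**Figure D4:**
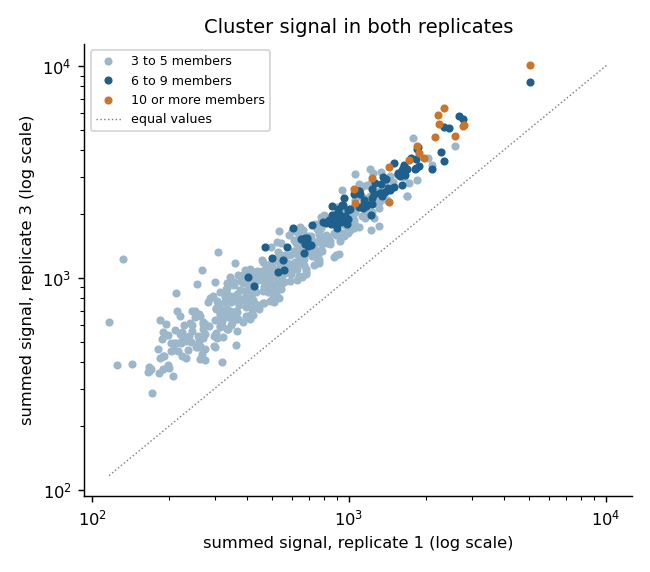
Summed signal of each cluster in replicate 1 and replicate 3 (log axes), for the 573 clusters of 3 or more with every member in both lists, coloured by number of members. All 573 points lie above the dotted line of equal values, and the median ratio of replicate 3 to replicate 1 is 2.05, on an unstated scale.

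Summits of members were rich in A + T. Windows reaching 50 bp to either side of the summits held 70.0% ± 7.42 (SD over 3168 members), and flanks centred 200 bp away held 54.1%. The genome held 57.8%. The summit was richer than its flanks in 2907 members (91.8%), by 15.9 ± 10.8 percentage points. The other kept peaks were alike in this, with 69.9% ± 7.79 at summits, 55.1% in flanks and a difference of 14.8 ± 11.2. The strongest member of each cluster of 3 or more had 71.2% at the summit and 52.2% in the flanks, a difference of 19.0 ± 10.4, against 15.1 ± 10.8 for the rest.

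**Figure D5:**
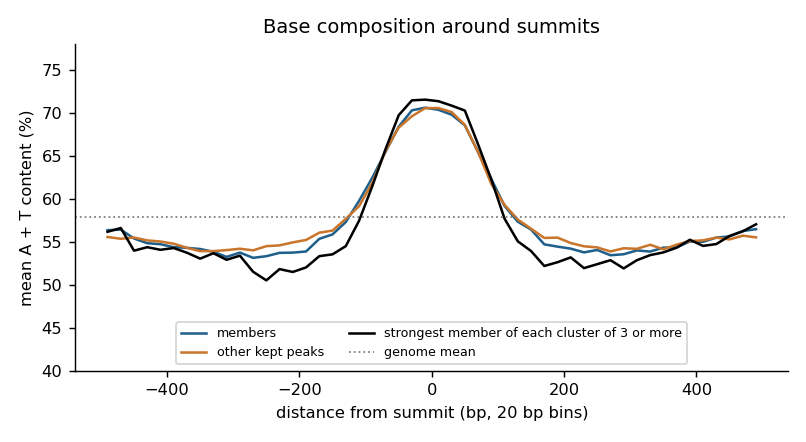
Mean A + T content in percent by distance from the summit in bp, in bins of 20 bp, for members, other kept peaks and the strongest member of each cluster of 3 or more, with the genome mean of 57.8% as a dotted line. All 3 curves are near 70% at the summit and between 50% and 55% at 250 bp to either side.

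Long runs of A or T were more frequent at summits than beside them. The longest run in the window had a median of 11 bp in members and in the other peaks, 7 bp in the flanks of members and 8 bp in windows along the genome. A run of 10 bp or more was present in 62.1% of members, 64.7% of the others, 23.9% of flanks and 30.8% of genome windows. Members and other kept peaks thus differed less from each other than either did from the flanks.

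Short motifs were counted on both strands in the same windows. The letters TAATTA, a core bound by many homeodomain proteins, were in 11.0% of members, 12.2% of the others, 4.37% of flanks and 6.47% of genome windows. The run AAAAAAA was in 15.4%, 17.4%, 9.86% and 8.69%. The GAGA factor letters GAGAG were in 7.32% of members and 8.05% of the others, below the 18.9% of flanks and 11.4% of genome windows. GCCAT was in 10.6%, 10.9%, 19.7% and 19.7%, and CACTG in 13.1%, 13.4%, 19.9% and 16.1%. Of the motifs above, those of A and T alone were more frequent at member summits than in flanks and genome windows. Those among them with G or C were less frequent. The part of base composition in these shares was not tested.

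The remaining motifs were counted in the same way. CGATA was in 10.01% of members, 10.8% of the others, 9.38% of flanks and 11.3% of genome windows. The longer TATCGATA, which contains it, was in 0.189%, 0.397%, 0.158% and 0.275%. GATAAG was in 5.33%, 4.71%, 3.79% and 4.22%, and CAGGTA in 1.70%, 1.77%, 1.66% and 2.30%. Unlike the motifs with G or C above, GATAAG was thus more frequent at member summits than in flanks and genome windows. CACGTG was in 0.410% of members and 0.350% of the others, against 1.20% of flanks and 1.17% of genome windows. TGACTCA was in 0.821% of members, 0.770% of the others, 1.15% of flanks and 0.784% of genome windows, and GGTCACA in 0.758%, 0.630%, 0.836% and 0.791%. For all 12 motifs the intervals of members and of the other kept peaks overlapped.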

How the data were processed

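ChIP-seq of CG9948-GFP was done on whole pupae in 2 biological replicates, which form 1 group per the labels. The deposited peak lists are narrowPeak tables in dm6 coordinates. Per the readme texts deposited with them, the IDR list was derived from both replicate lists and a pooled list. Aligner and caller were not given in the sources used. The control library was not used here. The signal is the value the authors deposited for each peak, on an unstated scale. Summits were deposited as an offset within the peak, and in 3 IDR peaks with an offset equal to the width the last base was used. Depth is unknown.

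Overlapping IDR peaks were reduced to the one with the highest signal. The annotation was BDGP6.54 of Ensembl release 115 and the sequence that of RefSeq release 6, with coordinates 1-based, 13945 protein-coding genes and 23133 distinct TSSs. Where classes overlapped, promoter came before UTR and coding exon, these before noncoding exon, and that before intron. Replicate peaks were matched by an overlap of 50% of the shorter peak. No test was made, because the rule used the positions and signals. The steps that keep peaks and form clusters were tested on simulated peaks, and the other steps were not. Python 3.11.15, NumPy 2.4.6, SciPy 1.17.1 and matplotlib 3.10.9 were used.

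Named are the 12 clusters with the most members (of 8 with 12 members, the one with the lowest summed signal was left out), the next 10 by summed signal, the 5 of 4 or more members with the smallest span, and up to 4 genes a list with the most members. Other named genes were chosen after their values were seen. The members, the 8 gene lists and the 12 motifs were chosen with earlier results of these data known. Of the listed genes 1 was not used, and 2 were matched by an older symbol.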

Additional observations from a re-analysis of the deposited data

How the results depend on the processing

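The number of members was 1560 with a linking distance of 2.5 kb, 4823 with 10 kb, 5244 with at least 1 other summit, 1774 with at least 3 and 959 with the weaker 50% of the IDR peaks left out. Clusters numbered 553 with 2.5 kb, 918 with 10 kb, 1585 with at least 1 other summit, 442 with at least 3 and 299 without the weaker 50%. The promoter share of members was 16.1% with 2.5 kb, 22.4% with 10 kb, 24.8% with at least 1 other summit, 14.7% with at least 3, 10.9% with promoters of 250 bp and 28.7% with promoters of 1000 bp. The share found in both replicate lists was 95.5% with 10 kb, 94.6% with at least 1 other summit, 97.4% with at least 3, 99.2% without the weaker 50% and 97.5% with an overlap of at least 1 bp. The cause of these shifts was not tested, except that the settings themselves change which peaks are counted.

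With each replicate left out in turn, the strongest 7637 peaks of the other gave 3144 to 3158 members, 791 to 798 clusters, a promoter share of 17.1 to 20.04% and an A + T content of 69.5 to 69.7%. With all overlapping IDR peaks kept there were 3403 members in 851 clusters. Mean A + T content at member summits stayed between 67.3 and 70.9% under the alternatives run. No paired analysis was possible because the replicates form a single group. Depth and the signal scale are unknown, and 2 replicates of whole pupae limit what the lists can show.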
